A study of Danio rerio with 2 samples.

Results

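The GATA transcription factors were followed in fluorescence-sorted cells of zebrafish embryos. Of the 7 genes looked for (gata1a, gata2a, gata2b, gata3, gata4, gata5 and gata6), 6 were found by gene identifier or protein name, with 10 transcripts, among the 22017 genes and 27808 transcripts with a read. gata2b could not be matched to a gene and was not analysed here. The cells came from Tg(fli1a:EGFP)y1 embryos, labelled as 22 to 24 hpf (hours post-fertilization), in which EGFP is driven by the promoter of fli1a, an ETS factor gene. GFP+ cells, labelled endothelial, were compared with GFP- cells of the same line, labelled non-endothelial, with 1 library per group and both groups carrying the transgene. The number of embryos pooled is not given in the sources used here. The fli1a promoter is known to be active in endothelium, in some blood cells and in pharyngeal arch cells, so the gate is not restricted to vessels.

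GATA factors are zinc-finger proteins that bind short DNA sites around the letters that gave them their name. One group of the family acts mainly in blood, with Gata1 directing red cell formation and Gata2 acting in blood progenitors, endothelium and some neurons, while Gata3 is used in ectoderm, neurons and kidney. Gata4, Gata5 and Gata6 act in heart and gut endoderm, and several members work with Friend of GATA (FOG) cofactors such as Zfpm1.

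Levels are given in RPM, reads scaled to the same library total. A level of 1 RPM stood for 4.44 reads in the GFP+ library and 4.11 reads in the GFP- library, which gives their depth, and the floor of 3 reads for 0.675 RPM in the GFP+ library and 0.731 RPM in the GFP- library. The labels were set beside marker genes, which is no independent check, as the lists were chosen with earlier results of these data known. Of 21 vascular genes with at least 10 reads in the libraries together, 19 were higher in GFP+ cells. A gene could pass this minimum through 1 library alone, as pecam1 did with 628 reads in the GFP+ library and 0 in the GFP- library. The summed level of all 24 vascular genes found was 5040 RPM in the GFP+ library and 556 RPM in the GFP- library. Most of the GFP- sum came from efnb2a, with 380 RPM in the GFP+ library and 376 RPM in the GFP- library. The gene fli1a, whose promoter drives the EGFP that was sorted on, had 753 reads in the GFP+ library and 9 in the GFP- library. Hemoglobin genes made up 6.59% of all reads in the GFP+ library and 0.0553% in the GFP- library, so the cells labelled endothelial also held hemoglobin RNA. All intervals below are 95% exact intervals and cover counting error only, but those of levels per kilobase are approximate for genes with more than 1 transcript. With 1 library per group no difference has a replicate check, and Fisher's exact test sets these libraries, not the conditions, against each other.

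gata1a and gata2a were higher in GFP+ cells, gata3 was lower, and gata4, gata5 and gata6 were not called. A gene was called when its log2 ratio of RPM, GFP+ over GFP- with 0.5 reads added, was above 1 or under -1 and its adjusted p was under 0.001 by Fisher's exact test, two-sided and Benjamini-Hochberg-adjusted over all genes with a read. Of all 22017 genes, 6.77% were called higher and 7.39% lower. All 6 GATA genes had at least 10 reads in the libraries together. Of the 15252 genes with that many reads, 9.78% were called higher and 10.7% lower, and their median log2 ratio was -0.11. In such bulk samples, fewer cells of a type and less RNA per cell cannot be told apart.

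**Figure D1:**
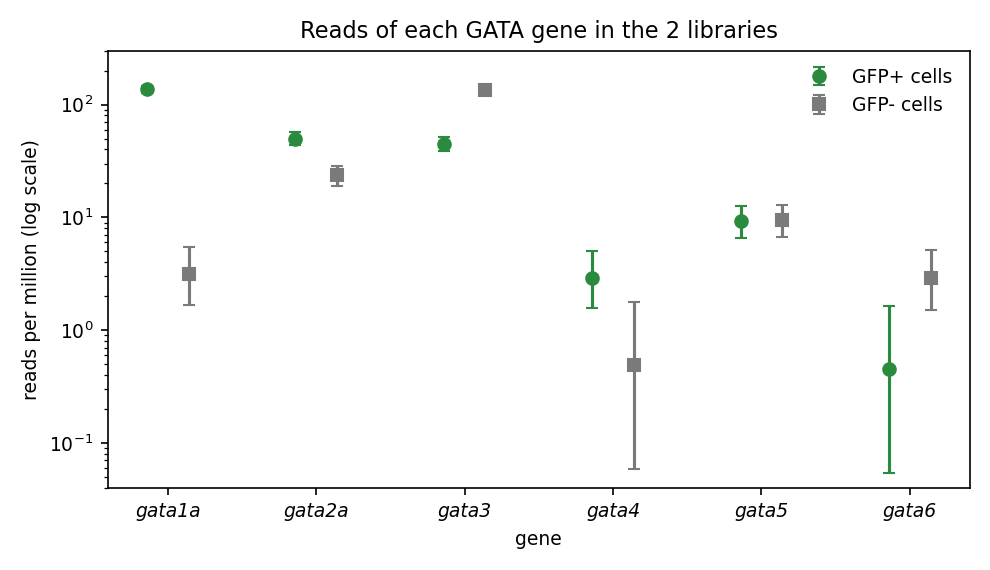
Level of the 6 GATA genes in GFP+ cells (green circles) and GFP- cells (grey squares), in RPM on a log axis, with exact 95% Poisson intervals of 1 library each. gata1a stood at 136 RPM in the GFP+ library and 3.17 RPM in the GFP- library, and gata3 at 45.0 RPM in the GFP+ library and 135 RPM in the GFP- library.

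gata1a (ENSDARG00000013477, minus strand of chromosome 11 in the Zv9 assembly, 26344512 to 26352415) encodes the factor that drives red cell differentiation. It had 605 reads in the GFP+ library and 13 in the GFP- library, or 136 RPM (125.6 to 147.5) and 3.17 RPM (1.69 to 5.41). The intervals are far apart, and nearly all gata1a reads were in the GFP+ library. Its level was 43.0-fold higher in GFP+ cells (24.97 to 81.3), with a log2 ratio of 5.37 (4.64 to 6.34) and an adjusted p of 3.38e-148 by the Benjamini-Hochberg-adjusted Fisher's exact test. Of the genes with at least 10 reads, 99.3% had a smaller log2 ratio. The 13 reads in GFP- cells lie above the floor.

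gata2a (ENSDARG00000059327, minus strand of chromosome 11 in Zv9, 3909992 to 3922643) encodes a factor of blood progenitors, endothelium and some neurons. It had 222 reads in the GFP+ library and 97 in the GFP- library, or 49.985 RPM (43.6 to 57.0) and 23.6 RPM (19.2 to 28.8). It was 2.12-fold higher in GFP+ cells (1.66 to 2.71), with a log2 ratio of 1.08 (0.73 to 1.44) and an adjusted p of 1.99e-09 by the Benjamini-Hochberg-adjusted Fisher's exact test. The gene was thus clearly present in both libraries, and the lower end of its interval lies under the fold needed for a call. Of the genes with at least 10 reads, 84.9% had a smaller log2 ratio.

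gata3 (ENSDARG00000016526, minus strand of chromosome 4 in Zv9, 24141643 to 24151643), a gene of ectoderm, neurons and pronephros in zebrafish, had the opposite direction. It had 200 reads in the GFP+ library and 554 in the GFP- library, or 45.0 RPM (39.0 to 51.7) and 135 RPM (123.9 to 146.7). Its level in GFP- cells was 2.996 times that in GFP+ cells (2.54 to 3.54), with a log2 ratio of -1.58 (-1.82 to -1.35) and an adjusted p of 4.84e-44 by the Benjamini-Hochberg-adjusted Fisher's exact test. gata3 was nonetheless well read in both libraries, and its level in the GFP+ library was close to that of gata2a there. Genes of epithelium and skeletal muscle were also well read in the GFP+ library. epcam had 817 reads there and 3304 in the GFP- library, and smyhc1 1639 there and 4075 in the GFP- library. Which cells of the GFP+ library held the gata3 reads was not tested. Of the genes with at least 10 reads, 8.44% had a smaller log2 ratio.

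The calls of gata2a and gata3 rest on counting error as the only error. With edgeR's exact test, in which a biological coefficient of variation of 0.4 was assumed and genes were called at an adjusted p under 0.05, the adjusted p was 0.000105 for gata1a, 1 for gata2a and 0.679 for gata3, so that only gata1a among the 6 kept its call.

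The heart and endoderm genes had few reads. gata5 (ENSDARG00000017821, plus strand of chromosome 23 in Zv9, 7453293 to 7464593), which in zebrafish is needed for heart and gut formation, had 41 reads in the GFP+ library and 39 in the GFP- library, or 9.23 RPM (6.62 to 12.5) and 9.50 RPM (6.75 to 13.0). Its log2 ratio was -0.04 (-0.71 to 0.63), with an adjusted p of 1 by the Benjamini-Hochberg-adjusted Fisher's exact test. The interval leaves room for a difference of up to 1.55-fold in favour of GFP+ cells or 1.64-fold in favour of GFP- cells. The sign of this ratio was positive under each of the 4 other scalings tried.

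gata4 (ENSDARG00000035759, minus strand of chromosome 20 in Zv9, 53586307 to 53602069) had 13 reads in the GFP+ library and 2 in the GFP- library, or 2.93 RPM (1.56 to 5.01) and 0.487 RPM (0.0590 to 1.76). The GFP- value lies under the floor of 3 reads. The log2 ratio of 2.32 (0.44 to 5.78) passed the fold but not the test, with an adjusted p of 0.0259 by the Benjamini-Hochberg-adjusted Fisher's exact test. gata6 (ENSDARG00000035831, minus strand of the unplaced Zv9_scaffold3540, 164734 to 175324) was the mirror case, with 2 reads in the GFP+ library and 12 in the GFP- library, or 0.450 RPM (0.0545 to 1.63) and 2.92 RPM (1.51 to 5.11). Here the GFP+ value lies under the floor. Its log2 ratio of -2.44 (-5.90 to -0.53) had an adjusted p of 0.0192 by the Benjamini-Hochberg-adjusted Fisher's exact test and was not called. At this depth neither difference can be sized closely: the ratio of gata4, GFP+ over GFP-, was 6.01 with an interval of 1.36 to 54.8, and that of gata6, GFP- over GFP+, was 6.49 with an interval of 1.44 to 59.7.

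**Figure D2:**
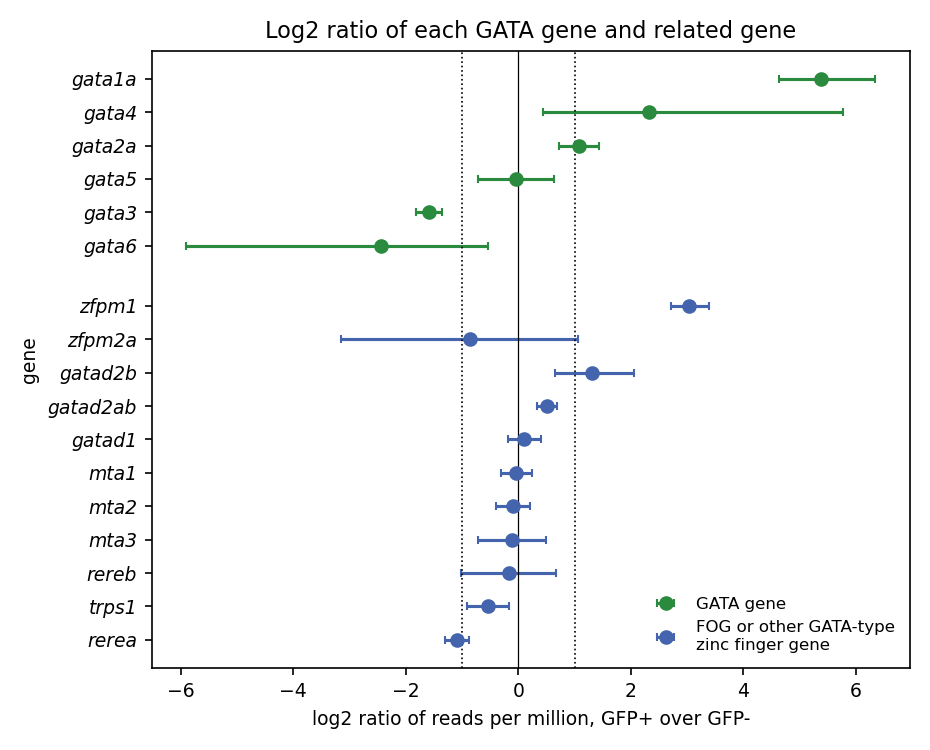
Log2 ratio of RPM, GFP+ over GFP-, with exact 95% intervals for the 6 GATA genes (green) and for FOG cofactors and other genes with a GATA-type zinc finger (blue), with dotted lines at the fold threshold of 1 and -1. The GATA genes spread between 5.37 for gata1a and -2.44 for gata6, whereas the intervals of mta1, mta2 and mta3 include 0.

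Most pairs of GATA genes differed in log2 ratio by more than counting error. The difference of the log2 ratios of a pair of genes does not depend on how the libraries are scaled. Of the 15 pairs of GATA genes 12 had an interval that excludes 0, but these pairs reuse the same 6 genes. Genes differ widely in these libraries: those with at least 10 reads had quartiles of -0.72 and 0.59. No such count was made for pairs of other genes, so whether it is particular to the GATA genes was not tested. gata1a exceeded gata2a by 4.30 (3.46 to 5.33) on the log2 scale, although both are blood factors of the same chromosome. gata2a exceeded gata3 by 2.66 (2.23 to 3.10) and gata5 by 1.12 (0.35 to 1.88). Among the factors of heart and endoderm, none of them called, gata4 exceeded gata5 by 2.36 (0.33 to 5.88). There gata5 exceeded gata6 by 2.39 (0.33 to 5.92), and gata4 exceeded gata6 by 4.75 (1.86 to 9.03). Each of these 3 differences rests on a value of 2 reads. With 5 reads added in place of 0.5 they were 1.30, 1.34 and 2.64 in that order, for which no interval was computed. The intervals were not adjusted for the 15 pairs. The pairs whose interval includes 0 were gata1a with gata4, gata4 with gata2a, and gata3 with gata6, each of which holds a gene of 15 or fewer reads.

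**Figure D3:**
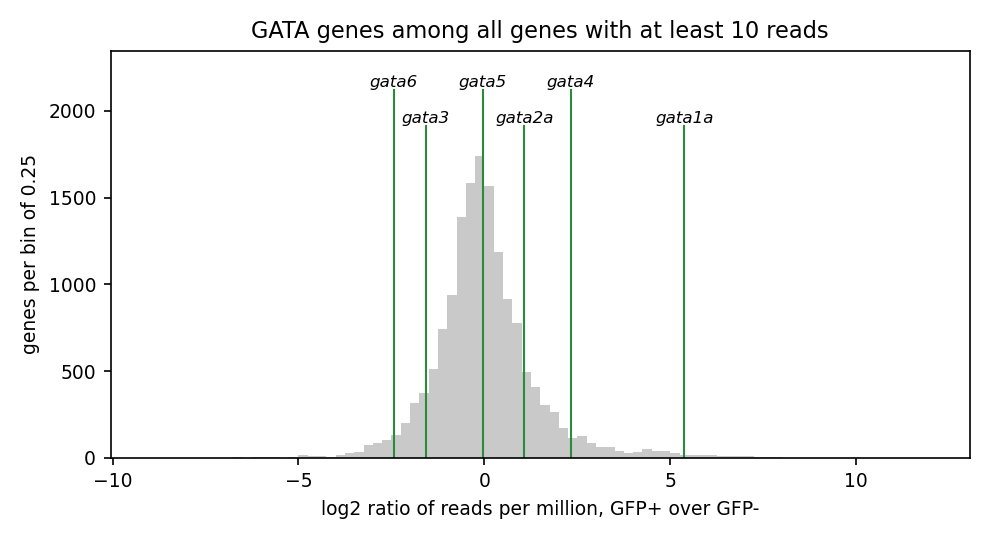
Number of genes per bin of 0.25 in the log2 ratio of RPM, GFP+ over GFP-, among the 15252 genes with at least 10 reads, with each GATA gene marked by a green line. gata5 lies at -0.04, close to the median of all genes at -0.11, gata2a at 1.08 lies on the right shoulder and gata1a at 5.37 in the right tail.

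Levels of different genes were compared per kilobase, as RPKM (RPM per kilobase of transcript) summed over the transcripts of a gene. The intervals scale this sum by the counting error of the gene's summed reads. For gata1a, gata3 and gata6, with more than 1 transcript, they leave out how the reads were split over the transcripts. In GFP+ cells the order was gata1a at 61.7 RPKM (56.9 to 66.8), gata2a at 19.7 (17.2 to 22.5), gata3 at 17.5 (15.1 to 20.1), gata5 at 3.996 (2.87 to 5.42), gata4 at 2.41 (1.28 to 4.12) and gata6 at 0.186 (0.0225 to 0.671). Neither gata2a and gata3 nor gata5 and gata4 could be ordered in GFP+ cells, because their intervals overlap. In GFP- cells gata3 led with 52.6 RPKM (48.3 to 57.2), before gata2a with 9.33 (7.56 to 11.4). The other GATA genes in GFP- cells followed with 4.11 RPKM (2.92 to 5.62) for gata5, 2.25 (1.199 to 3.85) for gata1a, 1.28 (0.660 to 2.23) for gata6 and 0.401 (0.0486 to 1.45) for gata4, each overlapping its neighbour. The level of gata1a depends on summing its transcripts. On its most-read transcript alone it had 42.0 RPKM in GFP+ cells, still the highest there. In GFP- cells that transcript had 0.771 RPKM, under the 1.00 of the most-read transcript of gata6. Both gata1a values lie outside the intervals above. Of all genes with a read, gata1a ranked 1264 in the GFP+ library and 11008 in the GFP- library by RPKM, while gata3 ranked 3868 in the GFP+ library and 1588 in the GFP- library.

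Put as shares of the 1083 GATA reads in GFP+ cells and the 717 in GFP- cells, the leading gene changed. gata1a took 55.9% of the family's reads in GFP+ cells (exact interval 52.8 to 58.8%) and 1.81% in GFP- cells (0.969 to 3.08%). gata3 took 18.5% in GFP+ cells (16.2 to 20.9%) and 77.3% in GFP- cells (74.0 to 80.3%). gata2a held the second place in both libraries, with 20.5% in GFP+ cells (18.1 to 23.0%) and 13.5% in GFP- cells (11.1 to 16.3%), although its interval in GFP+ cells overlaps that of gata3. gata5 had 3.79% in the GFP+ library and 5.44% in the GFP- library, and gata6 had 0.185% in the GFP+ library and 1.67% in the GFP- library. The summed level of the 6 genes was 244 RPM in the GFP+ library and 175 RPM in the GFP- library.

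Reads were also looked at transcript by transcript. gata1a was split over 3 listed transcripts, of which ENSDART00000112362 (2527 bases) had 471 reads in the GFP+ library and 8 in the GFP- library, and ENSDART00000013714 (1657 bases) had 125 reads in the GFP+ library and 1 in the GFP- library. The short ENSDART00000143727 (730 bases) had 9 reads in the GFP+ library and 4 in the GFP- library, and its log2 ratio of 0.96 (-0.78 to 3.21) includes 0. The gene's excess in GFP+ cells thus lay on its 2 longer transcripts, with log2 ratios of 5.68 (4.78 to 6.99) and 6.27 (4.35 to 12.2). Of gata3, 200 of 200 reads in GFP+ cells and 553 of 554 in GFP- cells were on ENSDART00000025153 (2576 bases). gata6 was listed with 2 transcripts, with 2 and 0 reads in GFP+ cells and 10 and 2 in GFP- cells, and gata2a, gata4 and gata5 were listed with 1 transcript each.

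The files also give the percent of each transcript covered by reads, which was set beside the median of transcripts within 20% of the same length and read count in the same library. gata1a and gata2a lay under the median of their like transcripts, and gata4, with 28.01% in GFP+ cells, lay slightly under its median of 32.0%. In GFP+ cells the 2527-base transcript of gata1a was covered over 39.57% of its length, where 161 like transcripts had a median of 89.0%. Of those 161, 5.59% were covered less. The 1657-base transcript of gata1a was covered over 8.39%, where 287 like transcripts had a median of 80.2%. Only 0.348% of those 287 were covered less. gata2a was covered over 47.65% in the GFP+ library and 45.2% in the GFP- library, under the medians of 83.7% and 66.8% for like transcripts. It was less extreme than gata1a: 14.7% of its like transcripts in the GFP+ library and 22.1% in the GFP- library were covered less. gata3 was close to its like transcripts, with 81.17% in the GFP+ library and 93.48% in the GFP- library, and gata5, with 60.04% in the GFP+ library and 52.21% in the GFP- library, was above its medians of 42.9% and 41.7%.

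Only uniquely mapped reads were counted, and coverage differed with the number of listed transcripts of a gene. Among GFP+ transcripts of 1500 to 3000 bases with 100 to 600 reads, the median coverage was 87.2% for genes with 1 listed transcript, 56.7% for genes with 2 and 42.6% for genes with 3 or more. Both longer transcripts of gata1a lie under the last value too. The 2527-base one, at 39.57%, lies between the quartiles of that class (29.5 and 57.8%), and the 1657-base one, at 8.39%, lies under them. gata2a, with 1 listed transcript, lay under the median of its own class in GFP+ cells. The part of overlapping transcripts in the level of gata1a was not tested.

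**Figure D4:**
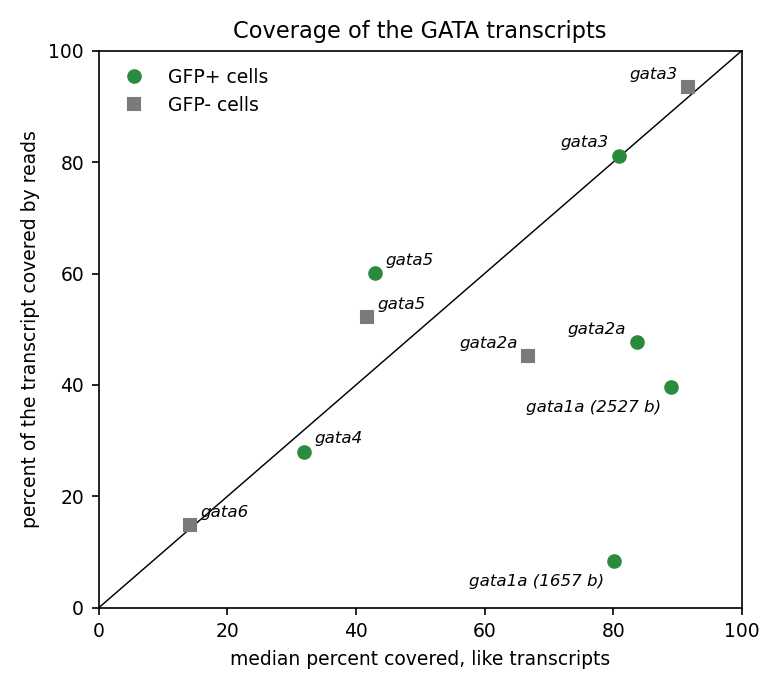
Percent of each GATA transcript covered by reads against the median percent of transcripts of similar length and read count, in GFP+ cells (green circles) and GFP- cells (grey squares), for transcripts with at least 10 reads in that library; the line marks equal values. The points of gata1a and gata2a lie under the line and that of gata4 slightly under it, for gata1a at 39.57% and 8.39% in GFP+ cells, and those of gata5 above it.

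gata1b, a gene outside the 7, had 1 read in the GFP+ library and 5 in the GFP- library. No other gene with a read overlapped the span of any of the 6 GATA genes in Zv9, which matters because the library kit does not keep the strand.

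Among cofactors that bind GATA proteins, zfpm1, the FOG partner of Gata1 in blood, had 721 reads in the GFP+ library and 81 in the GFP- library. It was 8.23-fold higher in the GFP+ library, with a log2 ratio of 3.03 (2.71 to 3.39) and an adjusted p of 1.03e-116 by the Benjamini-Hochberg-adjusted Fisher's exact test. gata1a exceeded zfpm1 by 2.34 (1.51 to 3.37) on the log2 scale, and gata2a lay under it by a difference of -1.96 (-2.46 to -1.46). zfpm2a, the other FOG gene read, had 4 reads in the GFP+ library and 7 in the GFP- library. These comparisons of a GATA gene with a partner, and those below, were chosen after the values were seen.

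Outside the family, 9 genes of proteins with a GATA-type zinc finger were read, and 1 was called higher and 1 lower. Both counts are near the shares over all genes with at least 10 reads, 9.78% higher and 10.7% lower. gatad2b, of a nucleosome remodelling complex, had 68 reads in the GFP+ library and 25 in the GFP- library, with a log2 ratio of 1.31 (0.65 to 2.05) and an adjusted p of 0.000205 by the Benjamini-Hochberg-adjusted Fisher's exact test. rerea, of a nuclear receptor cofactor, had 259 reads in the GFP+ library and 508 in the GFP- library, with a log2 ratio of -1.08 (-1.31 to -0.87), a call that ended under each of the 4 other scalings. The log2 ratios of gatad2ab (0.51), gatad1 (0.11), mta1 (-0.03), mta2 (-0.09), mta3 (-0.11), rereb (-0.17) and trps1 (-0.53) did not pass the fold, and their median over all 9 was -0.09, beside -0.11 for all genes with at least 10 reads. The GATA genes spanned a wider range than these 9 genes, in both directions.

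Genes of Gata1 partners and other blood regulators were split. Of 14 partners and blood regulators with at least 10 reads, 8 were called higher and 1 lower, with a median log2 ratio of 2.28. tal1, which binds DNA beside Gata1, had 2763 reads in the GFP+ library and 175 in the GFP- library, a log2 ratio of 3.86. Its bridging partner lmo2 had 1629 reads in the GFP+ library and 96 in the GFP- library, a log2 ratio of 3.96. gata1a exceeded tal1 by 1.51 (0.74 to 2.51) and lmo2 by 1.41 (0.60 to 2.43), so that gata1a was more unequal between the libraries than the partners it shares with gata2a. ldb1a, the scaffold of the complex, was the one called lower, with 346 reads in the GFP+ library and 702 in the GFP- library and a log2 ratio of -1.13, a call that ended under beta-actin scaling. tcf3a (0.97), tcf3b (0.59) and tcf12 (-0.15), of proteins that pair with Tal1, were not called. The highest ratio of the list was that of gfi1b, a repressor of red cell and platelet precursors, with 342 reads in the GFP+ library and 3 in the GFP- library.

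Red cell genes had log2 ratios on both sides of that of gata1a. All 14 erythroid genes with at least 10 reads were called higher, with a median log2 ratio of 6.03, between 7.9995 for the transferrin receptor gene tfr1a and 4.02 for tspo. Their summed level was 14814 RPM in the GFP+ library and 242 RPM in the GFP- library, and so was higher in the same library as gata1a. With 1 library per group this cannot show that they vary together. The part of this summed level in the level of gata1a was not tested. alas2, of the first step of heme synthesis in red cells, had 12780 reads in the GFP+ library and 126 in the GFP- library, and gata1a lay under it by a log2 difference of -1.17 (-1.96 to -0.17). The difference of gata1a from klf1, a red cell regulator with 1474 reads in the GFP+ library and 16 in the GFP- library, was -0.99 (-2.14 to 0.20), which includes 0. klf17, another red cell regulator of zebrafish, lay under gata1a, which exceeded it by 1.84 (1.08 to 2.82).

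gata2a was set beside vessel and blood progenitor genes, since it is used in both. Its log2 ratio of 1.08 lay well under the vascular median of 5.09 over 21 genes. The difference of gata2a from kdrl, a VEGF receptor gene with 2640 reads in the GFP+ library and 71 in the GFP- library, was -4.02 (-4.53 to -3.52), and from fli1a -5.12 (-6.38 to -4.17). The vascular list ran between pecam1, with 628 reads in the GFP+ library and 0 in the GFP- library (at least 194-fold higher against a floor of 3 reads in the GFP- library), and efnb2a, with 1686 reads in the GFP+ library and 1543 in the GFP- library. Among 6 hemogenic and stem cell genes, 4 (ikzf1, runx1, cbfb and myb) were called higher and 1 (meis1b) lower, with a median log2 ratio of 1.94. runx1, needed for blood stem cells, had 18 reads in the GFP+ library and 1 in the GFP- library, and a second gene identifier with its protein name had 5 in the GFP+ library and 0 in the GFP- library. myb, a regulator of blood progenitors, had 218 reads in the GFP+ library and 70 in the GFP- library, and the difference of gata2a from it, -0.44 (-0.99 to 0.10), includes 0. At the ends of that list stood ikzf1 with a log2 ratio of 5.50 and meis1b with -1.44. Myeloid genes were also read, with 5 of 7 (lyz, lcp1, coro1a, mpx and csf1ra) called higher, and the list ran between lyz at 5.56, the gene of a lysozyme, and cebpa at 0.96, which was called only under the 4 other scalings.

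For gata3 the lists were those of the ectoderm, neurons and pronephros. Of 12 surface ectoderm and epidermis genes 10 were called lower and 0 higher, with a median log2 ratio of -1.89. Their summed level was 2111 RPM in the GFP+ library and 4694 RPM in the GFP- library. Much of it came from krt8 alone, with 1472 RPM in the GFP+ library and 2327 RPM in the GFP- library. The 12 genes ran between krt8 (-0.66, not called) and foxi3b (-2.71), a gene of ionocytes. gata3 exceeded epcam, an epithelial adhesion gene, by 0.55 (0.28 to 0.81), and its difference from tfap2c, an ectodermal factor, was -0.24 (-0.54 to 0.05). gata3 therefore lay inside the range of the epidermal genes, a place that was not particular to them. It also lay inside the ranges of the endoderm, heart muscle, skeletal muscle, neuronal and pronephros genes. The medians of the endoderm (-1.54) and heart muscle genes (-1.52) were nearer to gata3 than the epidermal median. tp63, of basal epidermis, had only 6 reads in the GFP+ library and 22 in the GFP- library and was not called.

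The genes of the neurons in which gata2a and gata3 are used ran between tal2 (1.57, with 14 reads in the GFP+ library and 4 in the GFP- library, not called) and sox1b (-1.71, called lower), and 0 of them were called higher. Few reads fell on gad1b and phox2bb. gad1b, of the synthesis of the transmitter GABA, had 1 read in the GFP+ library and 0 in the GFP- library, and phox2bb 7 in the GFP+ library and 19 in the GFP- library. gad2, of the same step, had 58 reads in the GFP+ library and 23 in the GFP- library, and gata3 lay under it by -2.78 (-3.60 to -2.04). Of 6 general neuronal genes 2 (neurod1 and elavl3) were called lower. The list ran between stmn2b (1.09, called only under the 4 other scalings) and neurod1 (-2.25). The call of elavl3, with a log2 ratio of -1.01, ended under each of those 4 scalings. gata3 lay under elavl3 by -0.57 (-0.84 to -0.30). Over all genes with at least 10 reads, 9.78% were called higher and 10.7% lower. Near those shares, 1 (mecom) of 8 pronephros genes was called higher and 1 (pax8) lower, with a median of -0.09. The ends of that list were emx1 (1.91, called only under beta-actin scaling) and pax8, an early kidney factor, with 20 reads in the GFP+ library and 78 in the GFP- library, and the difference of gata3 from pax8 was 0.47 (-0.27 to 1.32). pax2a had 3 reads in the GFP+ library and 11 in the GFP- library.

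gata4, gata5 and gata6 were set beside heart and endoderm genes. Of 7 heart factors 3 (nkx2.7, hand2 and isl1a) were called lower and 0 higher, with a median log2 ratio of -0.37, and the list ran between mef2cb (0.73, or 1.78 on its most-read transcript and 0.28 with 1 RPKM added) and nkx2.7 (-3.50), which had 12 reads in the GFP+ library and 130 in the GFP- library. hand2, of the heart field and pharyngeal arches, had 57 reads in the GFP+ library and 118 in the GFP- library, and gata5 exceeded it by 1.11 (0.29 to 1.95). The call of hand2 as lower ended under beta-actin scaling. That of isl1a, with a log2 ratio of -1.09, ended under each of the 4 other scalings. From tbx20 gata5 differed by 0.33 (-0.50 to 1.16), which includes 0. The defining factor tbx5a had 0 reads in the GFP+ library and 2 in the GFP- library. Of 5 heart muscle genes 2 (actc1a and vmhc) were called lower, and the list ran between myh6 (-0.65) and actc1a (-3.09).

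Of 7 endoderm and gut genes 5 (pdx1, foxa1, foxa2, foxa3 and onecut1) were called lower and 1 (sox17) higher, with a median log2 ratio of -1.54. sox17, the one called higher, is also known in mammals as an arterial gene and had 19 reads in the GFP+ library and 1 in the GFP- library, while pdx1, of the pancreas, had 15 in the GFP+ library and 74 in the GFP- library. foxa2, a general endoderm factor, had 44 reads in the GFP+ library and 119 in the GFP- library. gata5 exceeded foxa2 by 1.496 (0.65 to 2.37) and foxa3 by 2.29 (1.46 to 3.14), so that gata5 was more evenly divided between the libraries than these endoderm genes. It was also far from the vessel gene kdrl, with a difference of -5.14 (-5.90 to -4.38). Skeletal muscle, a tissue for which no GATA gene is used as a marker, gave 5 of 5 genes (smyhc1, ckma, mylpfa, myod1 and myog) called lower, between smyhc1 (-1.43) and myog (-3.74).

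**Figure D5:**
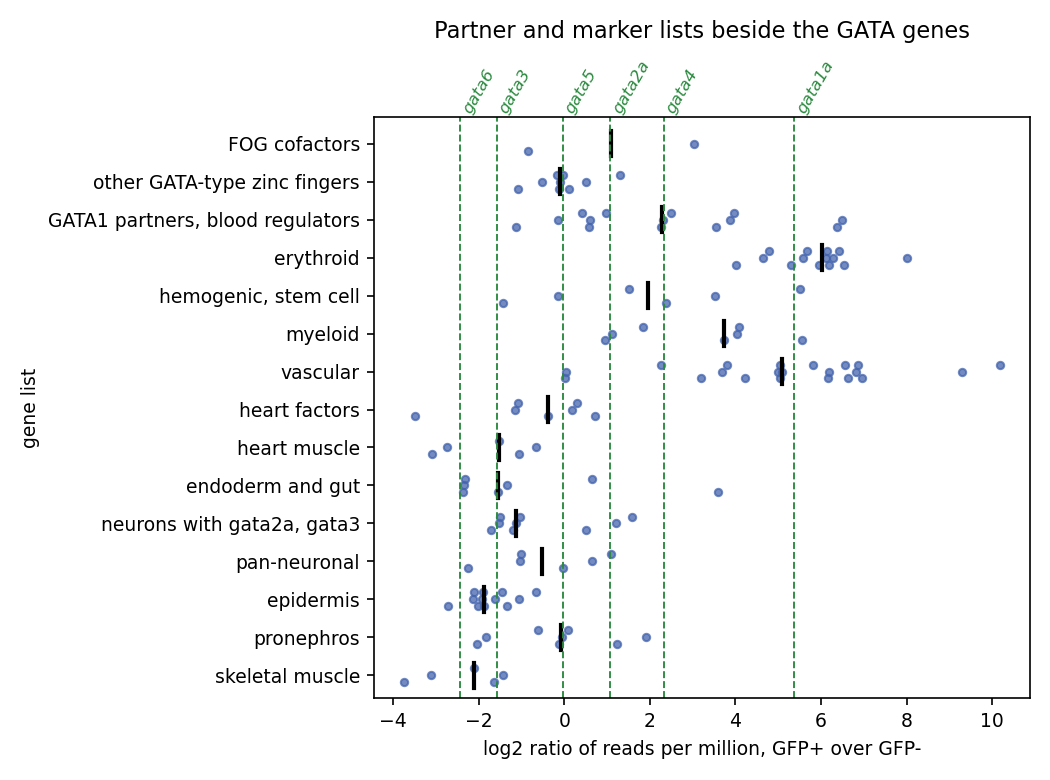
Log2 ratio of RPM, GFP+ over GFP-, of each gene with at least 10 reads in 15 partner and marker lists (blue points, 1 row per list, black bar at the median), with dashed green lines at the ratios of the GATA genes. The erythroid median of 6.03 lies right of gata1a at 5.37, and the vascular median of 5.09 lies far right of gata2a at 1.08. The epidermal median of -1.89 lies left of gata3 at -1.58, and the endoderm (-1.54) and heart muscle (-1.52) medians lie nearer to gata3.

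The genes nearest to a GATA gene in log2 ratio were sought among 7118 genes with a symbol and at least 100 reads, which with 2 libraries is a weak measure of likeness. For gata1a they were cpn2 (5.38, with 248 reads in the GFP+ library and 5 in the GFP- library) and cers1 (5.40, with 250 in the GFP+ library and 5 in the GFP- library), and only 18 genes lay within 0.25 of gata1a. For gata2a they were herc4 and jcada among 438 genes within 0.25, for gata3 asap2b and ptp4a3b among 309, and for gata5 ptenb and pdss1 among 1875. These counts only restate where each ratio lies, that of gata1a in the tail of all genes and that of gata5 near their median.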

How the data were processed

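RNA of sorted GFP+ and GFP- cells was sequenced as 1 library each. The authors deposited, per Ensembl transcript of Zv9 with a read, the count of uniquely mapped reads, the length, the percent of the length covered and the RPKM, which was recomputed from the counts. The aligner and counter are not given in the sources used here. Reads were summed by gene identifier and scaled to the library totals. Each gene's counts were compared against the rest of each library by the Benjamini-Hochberg-adjusted Fisher's exact test. Intervals are Clopper-Pearson for ratios and shares, Poisson for levels and conditional exact for differences of log2 ratios. The procedure was tested on simulated data with counting error only. Such data hold no variation between replicate libraries, so the test cannot check the calls against it. A symbol was given to 17910 of 22017 genes, from gene identifiers and RefSeq protein accessions, and 11 list genes were named from protein names. Of 176 genes in 15 lists, 145 were found and 132 had at least 10 reads. A list gene is not reported here. The members and lists were chosen with earlier results of these data known. Named genes were the 7 GATA genes, FOG and GATA-type zinc-finger genes with at least 10 reads, the extremes of each other list, a fixed set of regulators, and the 2 genes nearest in ratio for members with at least 20 reads. Genes named outside that rule (klf1, tcf3a, tcf3b, tcf12, epcam, tfap2c, elavl3, gad2, tbx20, foxa3, and others given in parentheses beside a count of calls) were chosen after their values were seen. Alternatives were a minimum of 20 reads, calls by the fold alone, edgeR's exact test, single transcripts, TMM, median-of-ratios, hemoglobin-free and beta-actin scaling, 5 reads or 1 RPKM added, and 50 reads for lists. Software was edgeR 4.0.16 in R 4.3.3, SciPy 1.17.1, NumPy 2.4.6, pandas 2.3.3 and matplotlib 3.10.9 in Python 3.11.15, and DESeq2 1.42.0 (size factors only).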

Additional observations from a re-analysis of the deposited data

How the results depend on the processing

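No paired analysis was possible because there was 1 library on either side, and no replicate could be left out. Across all genes, 1491 were called higher and 1627 lower, set beside 4710 and 4953 by the fold alone, 293 and 87 by edgeR's exact test with assumed variation, and 2309 and 951 after scaling to beta-actin reads, which raised the share of higher calls to 70.8% from 47.8%. Among the GATA genes, 2 were called higher and 1 lower. The fold alone called 3 higher and 2 lower, and edgeR called 1 higher and 0 lower, with 0 lower at an unadjusted p under 0.05. Under edgeR the log2 ratio was 1.08 for gata2a and -1.58 for gata3, and neither was called. The median over genes of at least 10 reads moved by 0.10 under TMM, 0.11 under median-of-ratios, 0.10 without hemoglobin reads and 0.35 under beta-actin scaling. A scaling moves every gene by the same amount, so the place of gata5 relative to that median, 0.07, was the same by construction. The ratio of gata5 itself became 0.0625, 0.0713, 0.0555 and 0.31 in that order. In the same order mta1 became 0.0728, 0.0816, 0.0658 and 0.32, and mta2 0.0139, 0.0227, 0.00687 and 0.26. Under beta-actin scaling mta3 became 0.24 and rereb 0.18. On the most-read transcript alone mta2 was 0.78 and mta3 0.24. With 5 reads added, the difference of gata3 and gata6 became -0.17. On its most-read transcript gata1a had 42.0 RPKM in GFP+ cells and 0.771 in GFP- cells. Over the alternatives, gata1a ranged between 4.27 and 5.72, gata2a between 1.01 and 1.43, gata3 between -1.58 and -1.23, gata4 between 1.25 and 2.67 and gata6 between -2.62 and -0.94. Depth limits gata4 and gata6, each under the floor in 1 library.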
